A study of Sus scrofa domesticus with 4 samples.

Results

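Desmin (DES), calponin 1 (CNN1), smooth muscle alpha actin (ACTA2), smooth muscle gamma actin (ACTG2), transgelin (TAGLN) and RGS5 are genes of contractile cells, and here they gauge how much smooth muscle and pericyte RNA was carried into explants of pig endometrium. The members were chosen by name, with no measured value in the rule but with earlier results of these data known. A probe belonged to a member when the RefSeq accession in the scanner files led to that gene's symbol. Of the 6 listed genes, 4 had such a probe on the array, and ACTG2 and TAGLN were not analysed here. DES and ACTA2 had 4 probes each, CNN1 and RGS5 had 2 each, which made 12 of the 43603 probes on the array. At least 1 probe of each of these 4 genes was bright enough to be tested, 8 probes in all, among 13782 tested probes and 1637 tested genes with a name.

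The study compared untreated endometrium with endometrium given 10 nM orexin B, a hypothalamic peptide also known as hypocretin 2, over 24 h of culture. Both groups came from Large White x Polish Landrace gilts aged 7 to 8 months on gestation days 15 to 16, and all slices (3 mm thick, about 100 mg) first spent 2 h in medium without peptide. There were 4 gilts and 4 arrays, cultures were set up in duplicate, and each array carried treated RNA in one dye and untreated RNA in the other. Which gilt lies behind which array is not given, so arrays serve as replicates and p-values measure their spread, which may be technical.

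Ratios are log2 values of treated over untreated RNA, so a positive value means more signal from the treated slices. By the dye labels of each array, treated RNA was Cy5 on arrays 1 and 3 but Cy3 on arrays 2 and 4, and the authors' deposited table runs the same way. The labelling text common to all samples can also be read as treated RNA in Cy5 throughout. That reading turns the sign on arrays 2 and 4, and the values it gives for the members and some other genes are stated beside their results. The scanner found 27.8% to 36.2% of spots well above background in Cy3. In Cy5 it found 82.4% to 86.7% on arrays 1, 3 and 4 and 46.8% on array 2, which was on another slide and in another scan than the rest. No spot was saturated.

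Smooth muscle shortens when calcium and calmodulin switch on myosin light chain kinase, which lets myosin pull on actin filaments. In the uterus most of this muscle forms the myometrium, the layer directly beneath the endometrium, while inside the endometrium it is found in the walls of vessels. Pericytes are contractile cells wrapped around capillaries and small venules. In a slice these genes therefore report mainly on cells other than the epithelium and stromal fibroblasts that make up most of the endometrium. ACTA2 is less specific, since myofibroblasts also make it. A slice with fewer contractile cells and a slice with less contractile RNA per cell cannot be told apart in such bulk RNA.

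All 4 genes were measured above background in the explants. DES, the intermediate filament protein of muscle, had a brightest probe with a signal 43.9 to 97.0 times its local background in Cy3 and 124 to 416 times in Cy5. ACTA2, the actin of contractile filaments in smooth muscle and in myofibroblasts, stood at 70.8 to 183 times background in Cy3 and 353 to 881 times in Cy5. CNN1, an actin-binding protein of differentiated smooth muscle, stood at 18.2 to 26.2 times background in Cy3 and 38.3 to 88.7 times in Cy5. RGS5, a regulator of G protein signalling known as a pericyte marker, stood at 41.4 to 119 times background in Cy3 and 62.4 to 304 times in Cy5. Both channels were well above background on all 4 arrays for these 4 probes. The multiples do not start from a floor of 1, since a dim CNN1 probe that was not well above background in Cy3 still read 6.11 to 14.3 times its local background there. CNN1, with a Cy3 signal of 801 to 1007 against an array median of 236 to 484.5 over all spots, was the nearest of the 4 to that floor. Probes differ in binding strength, so these figures do not rank the genes by transcript number.

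None of the 8 tested member probes passed limma's test at a Benjamini-Hochberg adjusted p of 0.05, and neither did any of the 13782 tested probes (0%). At an unadjusted p under 0.05 there were 495 tested probes over the array (3.59%) and none among the members. The members' adjusted p was 0.999 for every tested probe. Their median ratio over 4 genes was -0.14, against 0.02 over all tested probes, with 1 gene positive and 3 negative. A p above the threshold does not show that treated and untreated slices held the same amount of contractile RNA, and the gene intervals that follow give the sizes the data allow.

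At the brightest probe of each gene, DES had the widest ratios of the 4 genes. Its brightest probe read 1.48 on array 1, -0.85 on array 2, -0.85 on array 3 and -1.91 on array 4. Treated RNA gave more DES signal on array 1 and less on the other 3 arrays. The highest and the lowest array ratio were 10.5-fold apart, and their SD of 1.43 was larger than that of 99.0% of tested probes. The fitted ratio was -0.53 ± 0.38 (moderated SE, which borrows variance from the other probes of the array), with a 95% interval of -1.43 to 0.36 and an unadjusted p of 0.202. Each array moved this value: it was -1.12 without array 1, -0.80 without array 2, 0.050 without array 3 and -0.27 without array 4. If treated RNA was in Cy5 on every array, the ratio was 0.85.

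The other 3 DES probes were dim, with Cy3 above background on 1 array for 2 of them and on no array for the last, and they were not tested. The first of them read 0.66, -1.07, -0.35 and -0.32 on arrays 1 to 4. The next read 0.52, -0.96, -0.59 and -0.60, and the last read 0.14, -1.13, -0.55 and -0.43. Each had the sign of the bright probe on 4 of 4 arrays, so the probes of DES told array 1 from the other arrays alike, although the dim probes placed array 2 and not array 4 lowest.

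CNN1 had the signs of DES on a smaller scale, on 4 of 4 arrays with loess and on 3 of 4 in the authors' deposited table. Its bright probe read 0.41, -0.52, -0.27 and -0.47 on arrays 1 to 4. Treated RNA was again higher on array 1 and lower on the others. The SD of 0.43 was larger than that of 48.4% of tested probes, close to the middle of the array. The fitted ratio was -0.21 ± 0.19 (95% interval -0.66 to 0.24, unadjusted p of 0.302), and it was 0.038 when arrays were centred on their median in place of loess. Leaving out an array gave -0.38 without array 1 and -0.042 without array 3, the ends of the range. If treated RNA was in Cy5 on every array it was 0.28. With the scanner's own log ratio the SD of CNN1 was 0.994. A dim CNN1 probe, not above background in Cy3 on any array, read 0.08, -0.19, -0.16 and 0.19.

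ACTA2 split the arrays in another way. Its brightest probe read 0.66 on array 1, -0.94 on array 2, 0.33 on array 3 and -0.31 on array 4. The arrays with treated RNA in Cy5 were positive and those with treated RNA in Cy3 negative, so on all 4 arrays the Cy5 channel was the higher. The SD of 0.71 was larger than that of 81.5% of tested probes. The fit, which carries a term for the dye, gave a treatment ratio of -0.06 ± 0.19 (95% interval -0.52 to 0.39, unadjusted p of 0.757). Its dye term was 0.56 ± 0.19, with an unadjusted p of 0.0230 and an adjusted p of 0.311 in limma, and it is the treatment ratio if treated RNA was in Cy5 on every array. With the dye labels of each array the treatment ratio took both signs among the settings tried, at 0.095 without array 2, 0.021 without array 3 and 0.31 with median centring.

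All 4 ACTA2 probes shared this alternation. The second read 0.66, -1.39, 0.39 and -0.35 on arrays 1 to 4, and the third read 0.81, -0.30, 0.41 and -0.42. The fourth read 1.00, -0.89, 2.31 and -0.84, where the 2.31 of array 3 rests on an untreated channel that was not well above background. Their fitted treatment ratios were -0.17 ± 0.22, 0.12 ± 0.18 and 0.39 ± 0.24 in that order. The probes thus had the same signs on every array and yet did not share the sign of the treatment ratio. Averaged over its 4 probes ACTA2 stood at 0.071, a mean that includes the fourth probe, which was well above background in untreated RNA on 3 of 4 arrays.

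RGS5 went the other way from DES. Its brightest probe read -0.10 on array 1, 0.51 on array 2, 0.48 on array 3 and 0.66 on array 4. Treated RNA gave more RGS5 signal on 3 of 4 arrays, those on which DES and CNN1 were lower. The SD of 0.33 was larger than that of 31.2% of tested probes. The fitted ratio was 0.39 ± 0.19 (95% interval -0.05 to 0.83, unadjusted p of 0.0740), which is 1.31-fold. The second RGS5 probe read -0.40, 0.86, 0.30 and 0.76 and gave 0.38 ± 0.19, so the probes of RGS5 had the same sign on 4 of 4 arrays. The SD of this second probe, 0.57, was larger than that of 69.5% of tested probes. With any array left out the ratio of the brightest probe stayed between 0.24 and 0.53, and with treated RNA read as Cy5 throughout it was -0.20.

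The size of these spreads depends on the normalisation. With median centring in place of loess the SD over arrays was 2.50 for DES, 1.23 for CNN1, 2.11 for ACTA2 and 1.04 for RGS5, and the median over all tested probes was 1.04, against 0.44 with loess. At the brightest probe of each gene, DES was the widest and RGS5 the narrowest of the 4 genes under both.

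**Figure D1:**
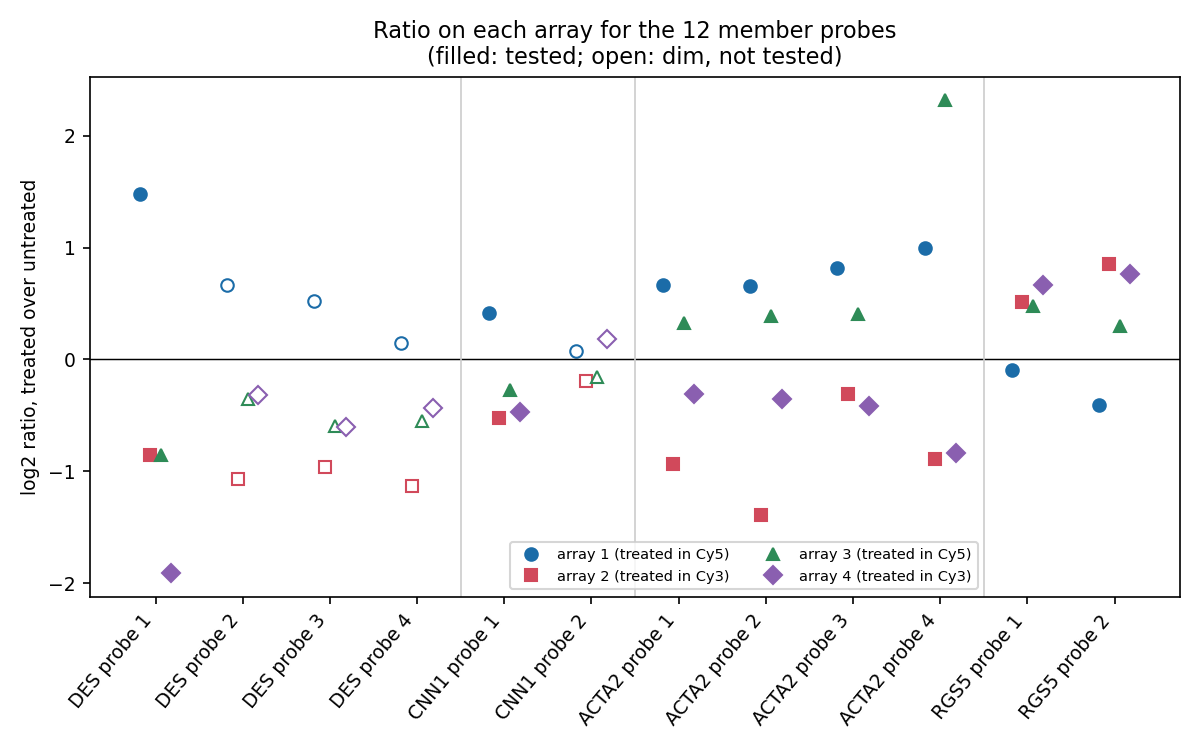
Log2 ratio of treated over untreated RNA (y axis) for each of the 12 member probes (x axis), with a point per array; filled points are tested probes and open points dim probes that were not tested. DES probes are positive on array 1 and negative on arrays 2 to 4, ACTA2 probes are positive on arrays 1 and 3 and negative on arrays 2 and 4, and RGS5 probes are negative on array 1 alone.

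The level in each channel was compared across arrays after Aquantile scaling, which gives all arrays the same distribution of average signals. In untreated RNA the DES log2 signal was 11.43, 13.56, 12.18 and 13.29 on arrays 1 to 4. In treated RNA it was 12.91, 12.70, 11.32 and 11.38. The untreated and treated levels overlapped, and the untreated levels alone spanned 2.13 log2 units, a wider range than that of 96.2% of tested probes. The treated levels spanned 1.59, wider than 84.7%. Untreated DES was higher on arrays 2 and 4, where untreated RNA was in Cy5, than on arrays 1 and 3, so slice and dye cannot be told apart for it. Treated DES was high on arrays 1 and 2 and low on arrays 3 and 4, which does not follow the dye.

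At the brightest probes, the untreated ranges of the other genes were narrower. ACTA2 was at 13.14, 13.32, 12.97 and 13.77 in untreated RNA and at 13.80, 12.39, 13.30 and 13.46 in treated RNA. Its untreated range of 0.80 and treated range of 1.41 compare with medians of 0.89 and 0.93 over all tested probes. The fourth ACTA2 probe spanned 3.94 in untreated RNA, with its lowest level on array 3, where that channel was not well above background. The second ACTA2 probe spanned 2.12 in treated RNA. CNN1 was at 10.53, 10.84, 9.91 and 10.20 untreated and at 10.94, 10.32, 9.64 and 9.73 treated, with both channels lower on arrays 3 and 4 than on arrays 1 and 2. RGS5 was at 12.21, 11.25, 11.81 and 12.13 untreated and at 12.11, 11.76, 12.29 and 12.79 treated. The 2 conditions overlapped for each of the 4 genes. These ranges depend on the scaling between arrays: with median scaling the untreated range was 3.22 for DES, 1.47 for CNN1, 1.32 for ACTA2 and 0.24 for RGS5, and the treated range was 2.45 for DES and 0.40 for ACTA2.

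**Figure D2:**
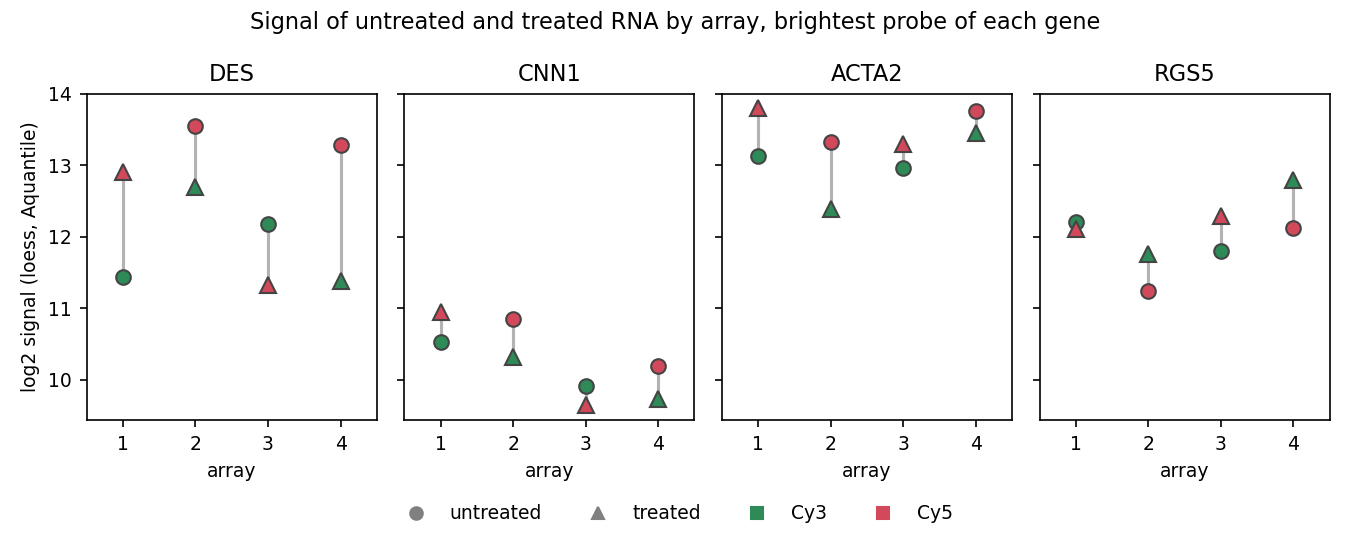
Log2 signal of the brightest probe of DES, CNN1, ACTA2 and RGS5 (y axis) on each array (x axis), with untreated RNA as circles and treated RNA as triangles, coloured by dye and joined by a line within an array. The lines for DES are the longest and run in both directions, and the levels of a gene are comparable across arrays but not between genes.

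The 4 genes shared signs over the arrays in part. DES and CNN1 had the same sign on 4 arrays, CNN1 and ACTA2 on 3, DES and ACTA2 on 3, and ACTA2 and RGS5 on 1. RGS5 had the opposite sign to DES and to CNN1 on all 4 arrays. With median centring RGS5 was opposite to DES on 25% of arrays (1 of 4), while it was opposite on 4 of 4 with the scanner's own log ratio and in the authors' deposited table, which are free of the loess step applied here and carry the scanner software's own dye correction. With that log ratio and that table DES and CNN1 shared their sign on 75% of arrays (3 of 4). The median of the 4 genes was 0.54 on array 1, -0.69 on array 2, 0.03 on array 3 and -0.39 on array 4, against medians between -0.03 and 0.06 over all tested probes. On array 1 there were 3 positive genes of 4, on array 3 there were 2, and on arrays 2 and 4 RGS5 was the single positive gene.

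The distance between a pair of genes was taken as the root mean square difference of their ratios over the 4 arrays, in log2 units. It was 0.96 for DES and CNN1 and 1.08 for DES and ACTA2. The median distance of DES from 1600 other named genes was 1.37. Of those genes, 2.69% were nearer to DES than CNN1 was and 7.125% nearer than ACTA2 was. From the other side, 88.75% of them were nearer to CNN1 than DES was, and 85.6% nearer to ACTA2 than DES was. CNN1 and ACTA2 were 0.40 apart, and 22.4% of the other genes were nearer to CNN1 than ACTA2 was, and 12.1% nearer to ACTA2 than CNN1 was. RGS5 was 1.79 from DES, 0.89 from CNN1 and 0.95 from ACTA2, and 99.9% of the other genes lay nearer to RGS5 than DES did. From the side of DES, 90.5% of the other genes lay nearer to it than RGS5 did.

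None of the 12 nearest named genes, 3 for each member, was in the contractile lists. For DES they were PPBP, a platelet chemokine precursor, at a distance of 0.51, S100A8, a calcium-binding protein of neutrophils, at 0.56, and PLAT, tissue plasminogen activator, at 0.69. For CNN1 they were SLA-DRB1, a class II histocompatibility gene, at 0.10, LY96, a partner of the endotoxin receptor, at 0.11, and the chemokine CXCL12 at 0.11. For ACTA2 they were RABEPK at 0.09, SUDS3 at 0.11 and ANGPTL4, a secreted inhibitor of lipoprotein lipase, at 0.12. For RGS5 they were the transcription factor MYC at 0.18, the mitochondrial chaperonin HSPD1 at 0.23 and the ubiquitin-conjugating enzyme UBE2D3 at 0.25. These are descriptions over 4 arrays that share slides, scans and dyes. With the scanner's own log ratio the neighbours of CNN1 lay at 0.563, 0.638 and 0.474 in that order, and with median centring ANGPTL4 lay at 0.903 from ACTA2.

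The rest of the contractile machinery gives the context. Of 43 other genes of the contractile apparatus, its anchoring plaques and its transcription factors, 16 were on the array and 11 were tested. Of these, 7 had a positive and 4 a negative treatment ratio, none was called, and their median was 0.04. TPM3, a tropomyosin that lies along the actin filament, stood at -0.39 ± 0.18 at its brightest probe and at -0.10 as the mean of its 4 tested probes. VCL (vinculin), which anchors actin at the membrane, stood at 0.35 ± 0.17, and ACTN1, an actin-crosslinking alpha actinin, at -0.31 ± 0.18. The array medians of these 11 genes were 0.50, -0.12, -0.09 and -0.19, so they too were highest on array 1. FHL1 and ACTN1 had the sign of DES on all 4 arrays, and the rest of the 11 did not. FHL1 lay at a distance of 0.77 from DES, nearer than CNN1 at 0.96, and ACTN1 at 1.09. Both were picked out with their values known.

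Some partners of ACTA2 shared its higher Cy5 channel and others had the opposite. MYL9, the regulatory light chain of smooth muscle myosin, read 0.93, -0.43, 0.50 and -0.56 on arrays 1 to 4. TPM2, the tropomyosin abundant in smooth muscle, read 1.13, -0.75, 0.60 and -0.56. Both alternated with the dye like ACTA2, and both were picked after their values were seen. Their treatment ratios were 0.11 ± 0.18 and 0.10 ± 0.18, and their dye terms were 0.61 ± 0.18 and 0.76 ± 0.18. MYLK, the kinase that starts contraction, and ACTC1, the cardiac actin, also had Cy5 above Cy3 on every array, as did 11.2% of tested probes. SMTN (smoothelin) and the tropomyosin TPM4, from the same contractile list, had Cy5 below Cy3 on every array, as did 15.6% of tested probes. The dye term was larger in size than the treatment term for 3 of the 4 members and 7 of the 11 other contractile genes, against 64.1% of all tested probes, and no tested probe had an adjusted dye p under 0.05. If treated RNA was in Cy5 throughout, these dye terms are the treatment ratios.

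**Figure D3:**
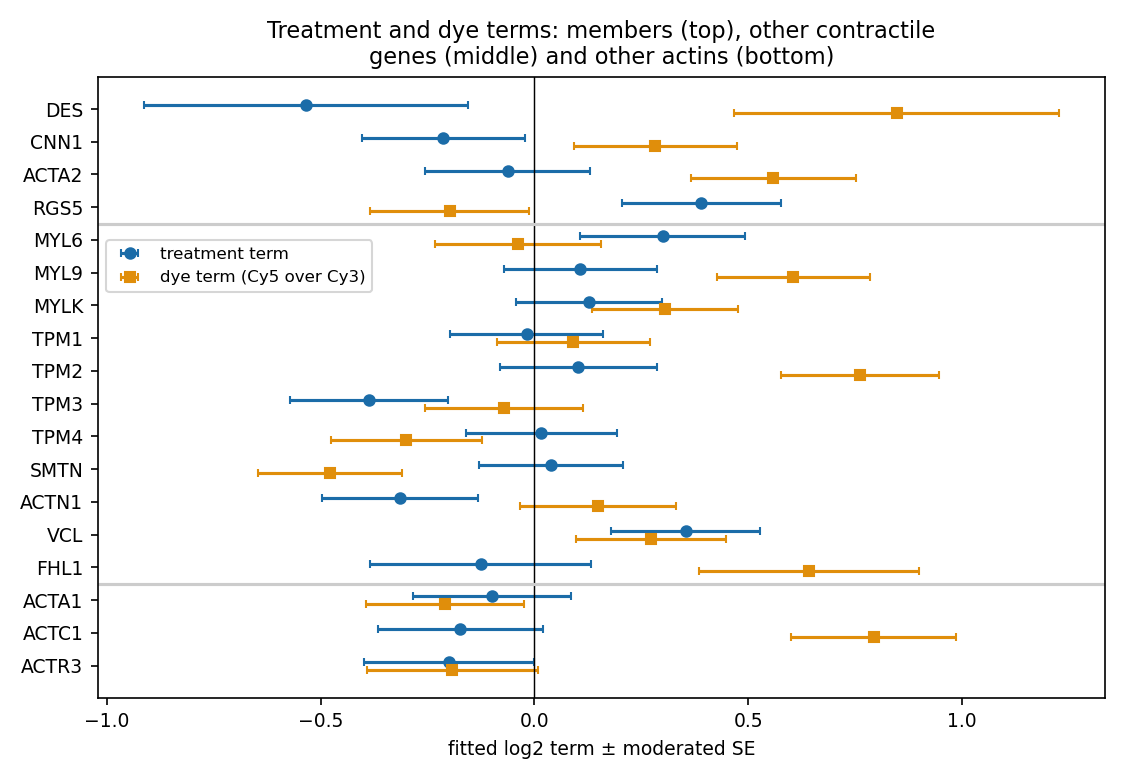
Fitted treatment term and dye term (x axis, log2, with bars of 1 moderated SE) for the 4 members, 11 other contractile genes and 3 other actin or actin-related genes (y axis). For DES, ACTA2, MYL9, TPM2 and ACTC1 the dye term lies further from 0 than the treatment term, while RGS5 lies further from 0 in its treatment term.

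Other actins bear on ACTA2 because the actin genes are close copies of each other. ACTC1 stood at -0.17 ± 0.19 with a dye term of 0.79, and its ratios lay at a distance of 0.34 from those of ACTA2. ACTA1, the skeletal muscle actin, stood at -0.10 ± 0.18 with a dye term of -0.21 and lay at a distance of 0.77. ACTR3, a subunit of the complex that branches actin filaments, stood at -0.20 ± 0.20. All 3 turned positive with median centring, which also moved the median of all tested probes to 0.28. Whether a probe of ACTA2 also binds transcripts of ACTC1, ACTA1 or ACTG2 was not tested.

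Genes that control contraction gave no call either. Of 26 genes of calcium, RhoA and phosphatase control, 15 were on the array and 10 were tested, with 4 positive, 6 negative and a median of -0.09. GUCY1A3, a subunit of the nitric oxide receptor that relaxes smooth muscle, had the smallest unadjusted p of these (0.0243) at -0.51 ± 0.18. It read -1.51, 0.51, -1.20 and 0.16 on arrays 1 to 4, so its sign also alternated with the dye, in the opposite sense to ACTA2. With treated RNA read as Cy5 throughout, GUCY1A3 stood at -0.85. RHOA, the small GTPase that keeps muscle tone, stood at -0.28 ± 0.17. Of 19 receptors and ligands, 12 were on the array and 6 were tested, with 2 positive and 4 negative. OXTR, the oxytocin receptor that drives uterine contraction, read 0.85, 0.29, 0.61 and 0.04, positive on 4 of 4 arrays, and stood at 0.45 ± 0.17 (unadjusted p of 0.0372, adjusted p of 0.999 in limma). If treated RNA was in Cy5 on every array, OXTR was negative on arrays 2 and 4 and its ratio was 0.28.

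RGS5 had few relatives to set it against. Of 12 other genes of its family 2 were on the array: RGS4 stood at -0.25 ± 0.21 and RGS2 at -0.08 ± 0.17. Both were negative on arrays 1 and 3 and positive on arrays 2 and 4, so their signs alternated with the dye. They differed in sign from RGS5 on array 3 alone. The dye term was larger in size than the treatment ratio for both, at -1.01 for RGS4 and -0.21 for RGS2. These dye terms are the treatment ratios if treated RNA was in Cy5 on every array. Of 11 pericyte markers 2 were on the array and 1 was tested, ANPEP, a membrane aminopeptidase that epithelial and myeloid cells also make. ANPEP read 0.33, -0.45, 1.22 and 1.14, against -0.10, 0.51, 0.48 and 0.66 for RGS5, and stood at 0.56 ± 0.29. It was 0.16 without array 4, 0.95 without array 2, 0.34 without array 3, 0.19 as the mean of its 2 tested probes and 1.11 in the authors' deposited table, and it was not above background in both channels on all arrays. The defining pericyte receptor PDGFRB had no tested probe, so RGS5 and ANPEP were the only pericyte genes with a test.

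Markers of other cell types moved over the same arrays, and their part in the members' ratios was not tested. The array medians were 0.76, 0.19, 0.67 and -0.34 for 5 fibroblast markers on arrays 1 to 4. They were -0.69, -0.51, -0.24 and 0.52 for 6 epithelial markers, 0.32, -0.22, -0.38 and -0.24 for 5 endothelial markers, and -0.03, -0.61, -0.16 and -0.61 for 7 leukocyte markers. The endothelial median had the signs of DES and CNN1 on every array, as did the median of the 11 other contractile genes. Of the endothelial genes, PECAM1 and VWF had these signs and the others did not. CDH5 was -0.37 on array 1, CLDN5 was 0.26 on array 4, and ENG was 0.08 and 0.13 on arrays 2 and 3. No gene of these lists was called. POSTN (periostin), made by stromal fibroblasts, had a ratio of 0.59 ± 0.20. CLDN3, a tight junction protein of epithelium, stood at -0.54 ± 0.21, CDH5, the cadherin of endothelium, at -0.39 ± 0.17, and S100A8 at -0.73 ± 0.25. Each had the smallest unadjusted p of its list. All 5 fibroblast genes were positive. So were 2 of 6 epithelial genes (KRT8 at 0.35, CLDN7 at 0.31), 1 of 5 endothelial genes (ENG at 0.28) and 1 of 7 leukocyte genes (CD163 at 0.18). With treated RNA read as Cy5 throughout, POSTN stood at 0.29, CLDN3 at -0.70 and CDH5 at -0.16.

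**Figure D4:**
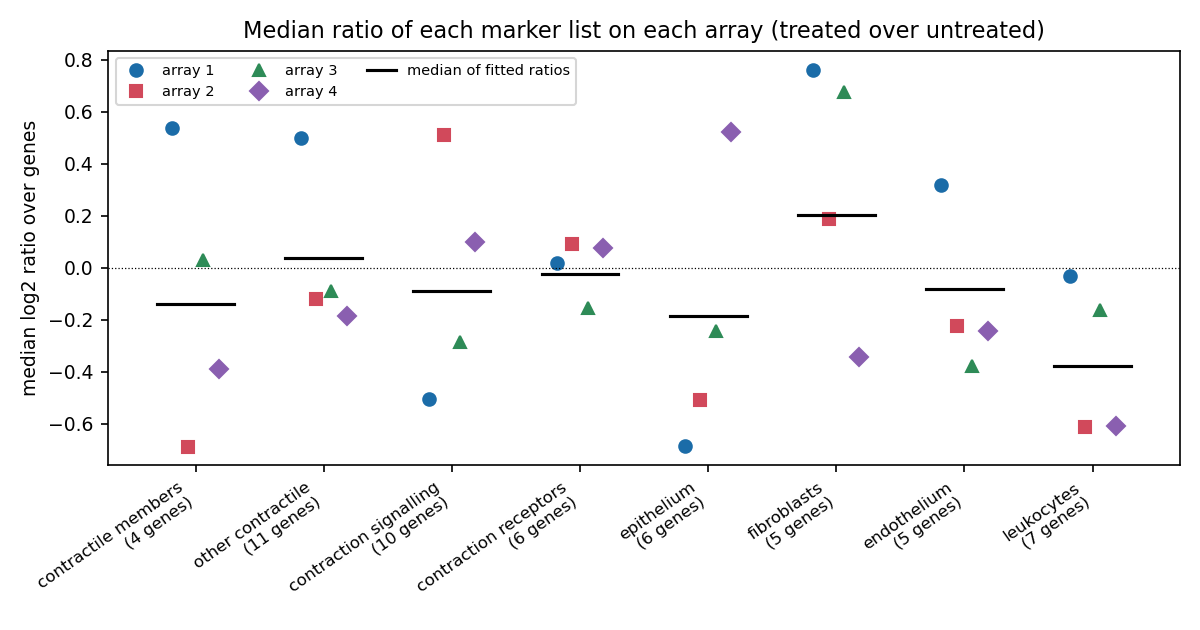
Median log2 ratio of treated over untreated RNA (y axis) on each array for the contractile members and 7 other gene lists (x axis, with the number of tested genes), with a point per array and a bar at the median of the fitted ratios. The members reach from -0.69 on array 2 to 0.54 on array 1, and the epithelial list is highest on array 4.

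Array 2 lay on a slide of its own, so within the other slide the ratios are those without array 2. They were -0.80 for DES, -0.20 for CNN1, 0.095 for ACTA2 and 0.43 for RGS5, with none called. Over the whole array 15 probes were then called, 12 higher and 3 lower in treated RNA, none of them a member. The slide of array 2 held 1 array and gives no test of its own.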

How the data were processed

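The data are 4 two-colour Agilent arrays. The spot intensities (median signal and median local background per channel) are as deposited, from Agilent Feature Extraction 10.7.3.1 on design 026440, per the file headers. They also hold a log10 ratio of Cy5 over Cy3, corrected by the scanner software, per the file headers. The authors' value table holds log2 ratios that track the processed signals of each array (correlation of 1.00 or -1.00), turned to treated over untreated, not centred, with column medians from 0.01 to 0.29.

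Here intensities were corrected by normexp (offset 50) and loess in limma 3.58.1 (R 4.3.3), with outlier and control spots at weight 0. A tested probe had 1 condition or both well above background on 4 of 4 arrays. The fit had a treatment and a dye term, 2 residual and 5.09 prior degrees of freedom, and Benjamini-Hochberg adjustment with a threshold of 0.05. The fit was tested on simulated data. Levels came from loess and Aquantile scaling. A gene is given by its brightest tested probe. Accessions were matched without versions to the RefSeq table of Sscrofa11.1, which named 6700 probes of 3029 genes and left 36903 unnamed. The files used here name no build, so no coordinates are given.

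Named are the members, up to 3 genes of smallest p per list and the 3 nearest genes of each member. Outside that rule MYL9, TPM2, MYLK, SMTN, TPM4, FHL1, KRT8, CLDN5, VWF and CD163 were named with their values known. Members and lists were chosen with earlier results of these data known. The alternatives were background correction, normalization, filter, dye term and orientation, variance model, probe summary, each array left out, and level scaling.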

Additional observations from a re-analysis of the deposited data

How the results depend on the processing

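Of 657 values recomputed under alternatives, 52 changed sign or side of the threshold or moved beyond their spread. Many of the 657 could not move. Dropping the dye term, changing the variance model or changing the filter leaves each named ratio and its spread as they are. Distances and shared signs do not depend on which dye held treated RNA. The count therefore does not measure robustness. The median of the 4 members, a value without a test, was also positive with median centring (0.18) and without array 3 (0.035). Read as treated RNA in Cy5 on every array, DES stood at 0.85, CNN1 at 0.28, ACTA2 at 0.56, RGS5 at -0.20, their median at 0.42, ACTN1 at 0.15, ACTC1 at 0.79, TNNI3 at -0.77 and S100A8 at 0.55. With median centring CNN1 stood at 0.038, ACTA2 at 0.31, ACTN1 at 0.039, RHOA at 0.12, ACTC1 at 0.23, ACTA1 at 0.32, ACTR3 at 0.18, RGS4 at 0.034 and RGS2 at 0.26, the array SD was 1.23 for CNN1, 2.11 for ACTA2 and 1.04 for RGS5, and RGS5 opposed DES on 25% of arrays. Relative to the all-probe median of 0.28 under that setting, DES was at -0.53, CNN1 at -0.24, ACTA2 at 0.03 and RGS5 at 0.46. Relative to the all-probe median of the same setting, the median of the 4 members was -0.11, against -0.15 with loess. The scanner's log ratio and the authors' table both gave CNN1 an SD of 0.994 and RGS2 a ratio of 0.047. The mean over tested probes of a gene gave 2 calls, both lower and no member, and ACTA2 at 0.071. The mean over all probes, dim ones included, was added after seeing the data and gave ACTA2 0.071 and ACTC1 0.080. Leaving out an array gave 0 to 15 calls (15 without array 2), DES from -1.12 to 0.050, ACTA2 from -0.22 to 0.095, ACTA1 from -0.24 to 0.039, MYOG from -0.012 to 0.60, TNNI3 from -0.12 to 0.52, TPM2 from -0.030 to 0.23 and MYL9 from -0.0010 to 0.22. Median scaling moved the level ranges to 3.22 (DES untreated), 2.45 (DES treated), 1.47 (CNN1 untreated), 1.32 (ACTA2 untreated), 0.40 (ACTA2 treated) and 0.24 (RGS5 untreated). The causes were not tested. The number of arrays limits the precision, and the dim DES and CNN1 probes were well above background in Cy3 on at most 1 array.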

Other observations

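Markers of striated muscle and of the outer uterine wall were mostly dim. Of 22 skeletal and cardiac muscle genes 16 were on the array and 2 were tested. MYOG, a transcription factor of skeletal muscle, stood at 0.29 ± 0.23 in the fit, and TNNI3, the inhibitory troponin of heart muscle, at 0.20 ± 0.24. Of 11 markers of mesothelium, nerve and red blood cells 2 were on the array and 1 was tested, WT1, a transcription factor of mesothelium and of endometrial stroma, at 0.41 ± 0.18. Adjusted p-values from limma were 0.999 for these 3 genes. Among 45 sets of 4 array values, none had a value that stood apart by Dixon's criterion for 4 samples, which flags about 1 in 20 sets by chance. The sets covered the tested member probes and part of the other named genes, and left out most of the nearest genes.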
